A study of Danio rerio with 39 samples.

Results

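The genes described here encode the proteins of the cytosolic ribosome in zebrafish embryos. They were chosen by name: every probe of the array whose gene name is Rpl or Rps followed by a number (with a or p between them allowed) or is rpsa was taken, and the kinases named rps6k were left out. The rule found 93 of the 21495 probes on the array (0.433%), which carry 42 of the array's 9327 gene names, 17 of the small subunit (36 probes) and 25 of the large subunit (57 probes). The number of probes per gene was 1 for 19 genes and went up to 8 for *rpl5*.

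Embryos of the AB* strain were exposed to the dioxin TCDD at 1 ng/mL or to its solvent DMSO (vehicle control), in both cases for 1 h between 4 and 5 h post-fertilization, and were collected on days 1, 2, 3, 4 and 5. They were kept in vials of about 15 to 20 and harvested whole, so that every tissue contributed to the RNA, and each replicate number stands for 1 of 4 independent experiments. There were 4 arrays per day and treatment, except for TCDD on day 2, which had 3 because the RNA of experiment 1 was degraded, giving 19 TCDD and 20 vehicle control arrays. All values below are log2 ratios of embryo RNA (red) to RNA of Zf4, a zebrafish embryonic fibroblast line that served as the common reference (green). A value of 0 therefore means equal signal in both channels after dye normalization. It does not mean equal mRNA, because by the labels embryo RNA carried the same dye on every array. Zf4 cells themselves express ribosomal proteins strongly.

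Ribosomal proteins assemble with ribosomal RNA into a small subunit, which decodes the mRNA, and a large subunit, which forms the peptide bond. Their mRNAs are among the most abundant in growing cells, and most carry a terminal oligopyrimidine (TOP) tract that lets the cell regulate their translation together. Subunits are put together in the nucleolus by a separate set of biogenesis factors, and some unassembled ribosomal proteins, such as Rpl5 and Rpl11, bind Mdm2, the ubiquitin ligase that restrains p53.

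The response to TCDD was checked on *cyp1a*, the cytochrome P450 gene that the aryl hydrocarbon receptor switches on. Its log2 fold change against vehicle control was 4.31, 6.33, 6.61, 6.31 and 5.72 on days 1 to 5, and the ranges of the treatments did not overlap on any day. The embryo signal of 16329 to 18624 probes per array stood well above background, and 29 to 93 spots had reached the scanner's ceiling. Defining markers of skeletal muscle (18 probes) and neurons (16 probes) were above background on all arrays.

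Ribosomal protein probes lay at the top of the brightness range, and 44 of the 100 brightest probes on the array belonged to them. They made up 25.7% of all saturated spots in the embryo channel and 31.7% in the reference channel. A saturated spot has no upper limit to its true signal, so its ratio is not a measure of the level. The probes for *rpl24* and *rpl7a* were saturated in both channels on all 39 arrays, and no change is given for them. Of the rest, 48 probes of 29 genes matched an mRNA and were never saturated in either channel on any array. A further 33 probes, those of *rpl24* and *rpl7a* included, were saturated on at least 1 array, and 12 probes matched only an expressed sequence tag. The embryo signals of these tag probes (geometric mean over arrays) ran from 50.2 to 911. The dimmest never-saturated mRNA probe had 949, and the median over all probes of the array was 429. The 48 never-saturated probes carry most of the account below. This choice was made after the values had been seen.

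In vehicle control embryos the mRNAs of ribosomal proteins were at their highest relative to Zf4 on day 1 and at their lowest on days 3 and 4. The array median of the 48 never-saturated probes was 0.02 ± 0.06 on day 1, followed by -0.16 ± 0.04, -0.26 ± 0.04, -0.23 ± 0.03 and -0.10 ± 0.02 on days 2 to 5 (SD, n = 4 each). In single arrays it lay between -0.07 and 0.07 on day 1 and between -0.29 and -0.21 on day 3, so that the groups did not overlap. From day 1 to day 3 the median change of these probes was -0.28, a level of 0.822 times that of day 1, and 47 of 48 probes had a negative change, whereas the median over all probes of the array was -0.04. In whole-embryo RNA, a smaller share of cells that express a gene strongly and less mRNA per cell cannot be told apart.

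**Figure D1:**
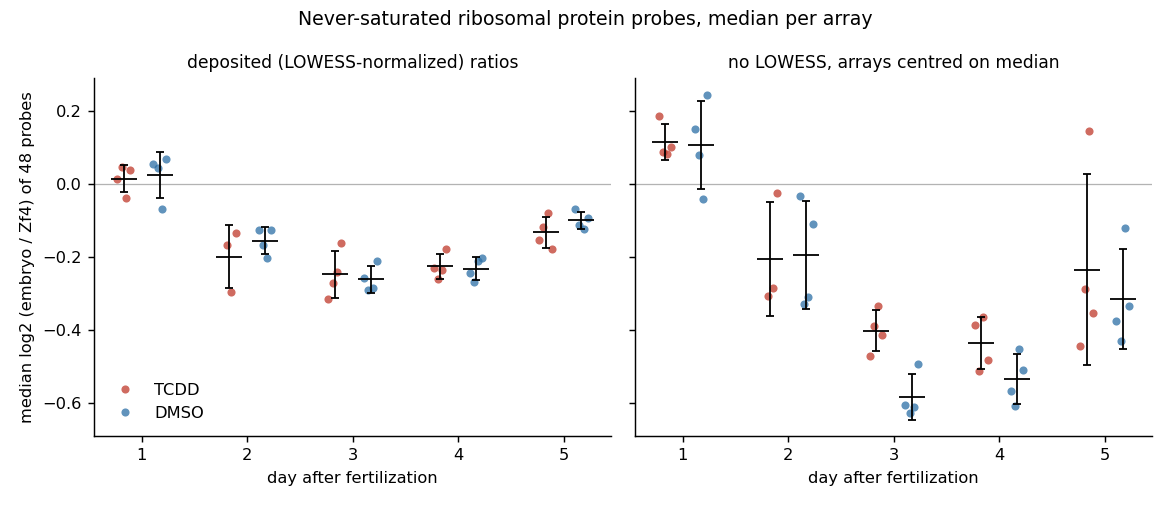
Median log2 ratio of embryo to Zf4 over the 48 never-saturated ribosomal protein probes, 1 point per array, by day and treatment (TCDD red, DMSO blue); black bars show mean and SD. In the deposited ratios (left) the medians were near 0 on day 1 and lowest on days 3 and 4 with no gap between treatments, and without the LOWESS step (right) the fall was deeper and TCDD lay above DMSO on day 3.

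Counted over all 93 probes, 24, 42, 42 and 14 changed against day 1 in vehicle controls on days 2 to 5 (limma, adjusted p under 0.05 over all probes). Of these, 23, 41, 40 and 12 fell. Across the whole array 29%, 39.2%, 43.8% and 46.7% of probes changed in either direction, and 15.5%, 20.8%, 24.2% and 25.5% fell. Over all 93 probes, saturated and tag probes included, the share that changed was thus 25.8% on day 2, 45.2% on day 3 and 15.1% on day 5. On day 3, 44.1% of them fell and 1.08% rose. Among the 48 never-saturated probes, 18, 34, 29 and 8 fell on days 2 to 5, and none rose in this fit, also at an unadjusted p under 0.01. With the experiment as a block, 28 of the 93 probes changed on day 5, 4 upward and 24 downward (array: 48.8% changed), and 2 of the never-saturated probes rose. The 24 calls of day 2 dropped to between 9 and 14 when any 1 experiment was left out. For the never-saturated probes the 18 of day 2 dropped to 7, 8, 12 and 11 without experiments 1 to 4, the 29 of day 4 dropped to 17 without experiment 1, and the 8 of day 5 to 4 without experiment 1, to 4 without experiment 2 and to 5 without experiment 4. In the largest scan batch, vehicle controls of days 1 and 3 came from experiments 2 and 3 only. Among its 24 arrays, 15 probes were called on day 3 and all of them fell. This fit and those without an experiment hold fewer arrays, and the array's share in them is not given here. Whether the drops are particular to these genes was not tested.

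The median change was more negative for the large subunit. On day 3, 28 of its 34 never-saturated probes fell, with a median change of -0.36, compared with 6 of 14 probes of the small subunit, with a median of -0.18. The 2 subunits were not tested against each other, because probes of a gene share their target. Of the 34 probes, 7 belong to *rpl5* alone.

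**Figure D2:**
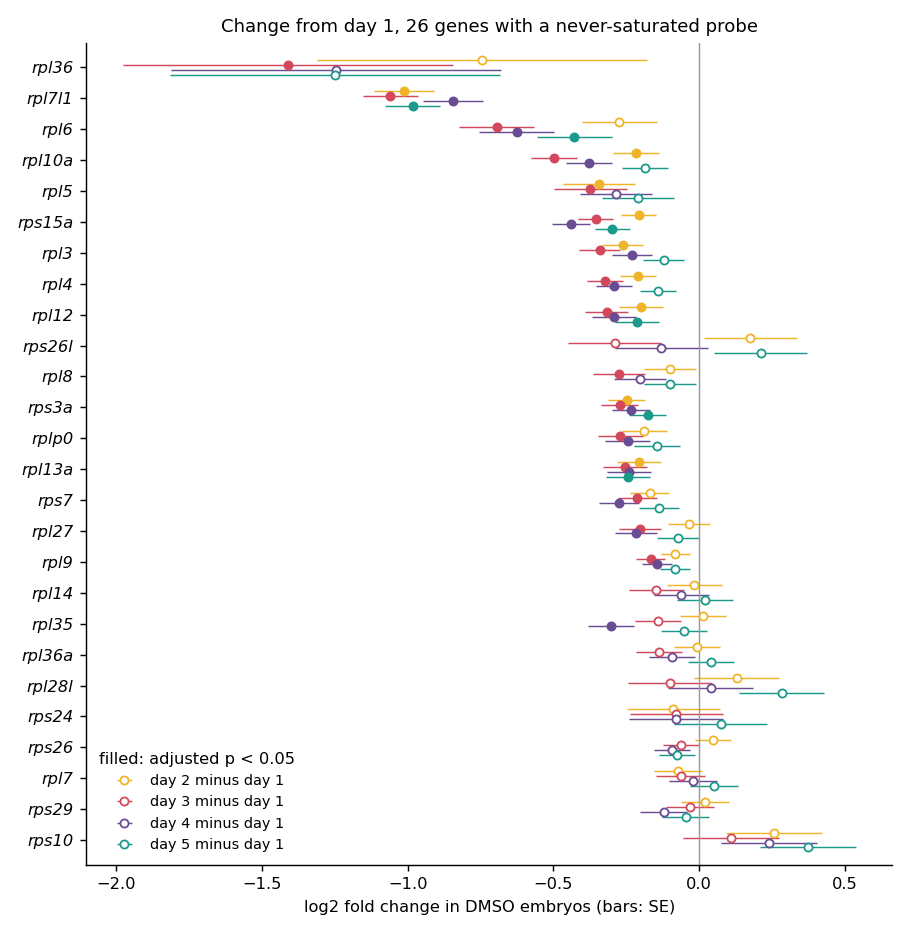
Log2 fold change of DMSO embryos on days 2, 3, 4 and 5 against day 1 (x axis, bars are standard errors) for the brightest never-saturated probe of 26 genes, sorted by the day 3 value; filled points have an adjusted p under 0.05. Most points lie left of 0, more of them on days 3 and 4 than on days 2 and 5. Among the genes filled on every day are *rpl7l1*, *rpl13a* and *rps15a*, and *rps10* lies right of 0 on all days without passing the test.

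The largest fall among the members called on day 5 was that of *rpl7l1*, a paralog of the large subunit gene *rpl7* whose yeast relative acts in subunit assembly. Its brighter probe gave -0.89, -0.71, -0.59 and -1.01 in vehicle controls on day 1. The 3 arrays with a value on day 2 gave -1.73, -1.82 and -1.89, and the spot of experiment 1 was an outlier and is missing there. All later arrays stayed at this low level, with no overlap with day 1. The log2 fold change against day 1 was -1.01 ± 0.10, -1.06 ± 0.09, -0.84 ± 0.10 and -0.98 ± 0.09 (SE) on days 2 to 5 (adjusted p = 6.03e-10 for the last). The second probe of the gene gave -0.28, 0.04, 0.19 and -0.33 on day 1, -1.19, -0.94, -1.01 and -1.22 on day 2, and a change of -0.95 ± 0.10 on day 5 (adjusted p = 2.38e-09).

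*rpl6*, a large subunit protein, gave 0.82, 0.74, 0.52 and 0.50 in vehicle controls on day 1. Its values on day 3 were -0.12, 0.03, -0.10 and -0.0050, all below day 1. The change was -0.69 ± 0.13 on day 3 (adjusted p = 4.09e-05) and -0.43 ± 0.13 on day 5 (adjusted p = 0.00609), and without experiment 1 the change of day 5 was -0.34 (adjusted p = 0.0592). *rpl10a*, the protein of the L1 stalk beside the site where tRNA leaves the ribosome, had 0.99, 0.86, 0.70 and 0.89 on day 1. On day 3 it had 0.38, 0.41, 0.27 and 0.38, again without overlap. Its change of -0.50 ± 0.08 on day 3 (adjusted p = 3.92e-06) had shrunk to -0.19 ± 0.08 by day 5 (adjusted p = 0.0536).

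The core large subunit proteins *rpl3* and *rpl4*, which line the region of the peptidyl transferase centre and the exit tunnel, moved alike. *rpl3* (brightest never-saturated probe) had 0.65, 0.54, 0.44 and 0.43 on day 1. Its day 3 values of 0.21, 0.21, 0.12 and 0.16 gave a change of -0.34 ± 0.07 (adjusted p = 1.49e-04). The other never-saturated *rpl3* probes changed by -0.38 and -0.36, while the brightest probe of the gene was saturated on 34 arrays and gives no change. *rpl4* had 0.10, 0.05, -0.07 and 0.04 on day 1, against which day 3 gave -0.27, -0.29, -0.28 and -0.33, a change of -0.32 ± 0.06 (adjusted p = 5.81e-05).

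*rpl5* and *rpl11* carry the 5S ribosomal RNA into the large subunit. The brightest *rpl5* probe had -0.44, -0.84, -0.94 and -0.98 on day 1 and -1.17, -1.03, -1.22 and -1.27 on day 3, so that the days did not overlap. It changed by -0.37 ± 0.12 (adjusted p = 0.0158), and without experiment 1, which set the upper end of day 1, by -0.25 (adjusted p = 0.160). The dimmest mRNA probes of this gene changed by -0.71 ± 0.18 and -0.56 ± 0.13. The only *rpl11* probe was at the embryo channel's ceiling on every vehicle control array of day 1, so its change is not given. *rpl12*, a protein at the base of the ribosomal stalk, changed by -0.32 ± 0.07 on day 3 (adjusted p = 7.28e-04). *rplp0*, the stalk protein, had -0.51, -0.48, -0.64 and -0.32 on day 1, above the -0.72, -0.83, -0.84 and -0.66 of day 3. Its change was -0.27 ± 0.08 for this probe (adjusted p = 0.00527) and -0.28 ± 0.08 for the second never-saturated probe, and without experiment 2 the first had -0.25 (adjusted p = 0.0642). *rpl13a*, whose protein in mammals also has a role in silencing inflammatory mRNAs, changed by -0.25 ± 0.08 on day 3 (adjusted p = 0.00725) and by -0.24 ± 0.08 on day 5 (adjusted p = 0.00797). Without experiment 1 its changes were -0.17 (adjusted p = 0.138) and -0.16 (adjusted p = 0.134), and on day 5 the call was also lost without experiment 2 (adjusted p = 0.0976) and without experiment 4 (adjusted p = 0.0707).

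In the small subunit, *rps15a* stood out. It had 0.26, 0.32, 0.29 and 0.35 on day 1, and -0.11, 0.03, -0.08 and -0.04 on day 3. The values of the days did not overlap, and the changes of days 3 to 5 were -0.36 ± 0.06, -0.44 ± 0.06 and -0.30 ± 0.06 (adjusted p = 1.31e-05, 1.21e-06 and 1.04e-04). *rps9*, an early-assembling protein of the small subunit, has a single probe, whose embryo signal was saturated on 1 vehicle control and 2 TCDD arrays of day 1. It changed by -0.28 ± 0.06 on day 5 in vehicle controls (adjusted p = 2.32e-04), which understates the fall where the day 1 signal was capped, and by -0.31 with saturated spots left out (adjusted p = 1.14e-04). *rps3a* changed by -0.27 ± 0.06 on day 3 (adjusted p = 7.68e-04). The only *rps14* probe was saturated on every vehicle control array of day 1.

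*rpl36* was an extreme in both ratio and spread. Its mRNA probe was dim for this set, with mean signals of 4033 in embryos and 263 in Zf4. The medians of the never-saturated probes were 168046 and 177182. The ratio of embryo to Zf4 was high, with 4.16, 5.30, 4.64 and 5.18 in vehicle controls on day 1. On day 3 the values were 1.87, 4.42, 3.76 and 3.60, so the groups overlapped. The change of -1.41 ± 0.57 (adjusted p = 0.0471) had the largest standard error among the named genes. Experiment 1 gave the lowest value in 7 of the 9 groups that include it. With the experiment as a block the adjusted p was 9.61e-04. The call was lost without any 1 of the experiments, with changes of -1.12 (adjusted p = 0.109), -1.59 (adjusted p = 0.0745), -1.59 (adjusted p = 0.0886) and -1.35 (adjusted p = 0.139) without experiments 1 to 4.

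A few members did not take part in the fall in the deposited ratios. *rps10* had changes of 0.26 ± 0.16, 0.11 ± 0.16, 0.24 ± 0.16 and 0.37 ± 0.16 on days 2 to 5 (adjusted p = 0.0636 on day 5). On day 3 *rps29* had -0.03 ± 0.08, the never-saturated probe of *rpl7* had -0.06 ± 0.08, and the brightest probe of *rps26* had -0.06 ± 0.06. Without the LOWESS step their day 3 changes were all negative. They were -0.27 for *rps10*, -0.49 for *rps29*, -0.50 for *rpl7* and -0.48 for *rps26*. In the fit without a block, the rises past the test on day 5 came from expressed sequence tag probes. The tag probe named *rps26l* gave -0.24, -0.39, -0.34 and -0.14 on day 1 and 0.17, -0.02, 0.37 and 0.03 on day 5, a change of 0.42 ± 0.10 (adjusted p = 9.05e-04), and it was also called on days 3 and 4 (0.35 and 0.44). The mRNA probe of that name had a change of 0.21 ± 0.16 (adjusted p = 0.309). The tag probe named *rps7* changed by 0.55 ± 0.20 on day 2 (adjusted p = 0.0420), 0.53 ± 0.20 on day 4 (adjusted p = 0.0358) and 0.63 ± 0.20 on day 5 (adjusted p = 0.0105). The brightest mRNA probe of *rps7* changed in the opposite direction on day 4, by -0.28 ± 0.07 (adjusted p = 0.00107), and had -0.14 ± 0.07 on day 5 (adjusted p = 0.0993). A tag probe named *rps26* changed by -0.29 ± 0.11 on day 5 (adjusted p = 0.0317), while its brightest mRNA probe had -0.08 ± 0.06. What the tag probes bind was not tested.

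Between day 4 and day 5 of vehicle controls no ribosomal protein probe passed limma's adjusted threshold, against 4.95% of the array, and 2 had an unadjusted p under 0.01 (array: 7.66%). The direction was upward, with 44 of the 48 never-saturated probes positive and a median of 0.11. TCDD embryos went through the same kind of time course. On day 3 against their own day 1, 40 of 93 probes changed, 38 of them downward (array: 36.2% changed, 18.4% fell), and 31 of 48 never-saturated probes fell with a median of -0.24 (17, 16 and 20 fell without experiments 1, 2 and 4). On day 5, 19 probes changed, 17 of them downward (array: 44.6% changed, 24.1% fell). Without experiment 2 these counts were 23 on day 3 and 9 on day 5, and that of day 5 was 10 without experiment 1 and 11 without experiment 4. *rps15a* changed by -0.52 ± 0.06 in TCDD embryos on day 3 (adjusted p = 2.43e-08).

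How far the levels fell depended on the dye normalization. The software's LOWESS step bends each array's ratios toward a common centre along the whole brightness range. At the bright end a large part of the spots are ribosomal protein probes themselves. The deposited ratios did not centre exactly on 0, since the median over all probes lay between -0.19 and -0.07 on single arrays. When background-subtracted signals were used without LOWESS and each array was centred on its median, 78 of 93 probes changed on day 3, 3 upward and 75 downward (array: 39.6% changed, 21.4% fell), and 45 of the 48 never-saturated probes fell. Their median change was -0.69, compared with -0.28 in the deposited ratios. On day 5 the median was -0.43 without LOWESS, and 40 of 48 fell. The array's share on that day in this setting is not given here. The direction stayed downward on days 3 and 5 under the other scalings that were run: on day 3 the median of the never-saturated probes was -0.31 after normexp and loess, -0.39 in the embryo channel alone, -0.28 after quantile normalization and -0.24 after centring each array.

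**Figure D3:**
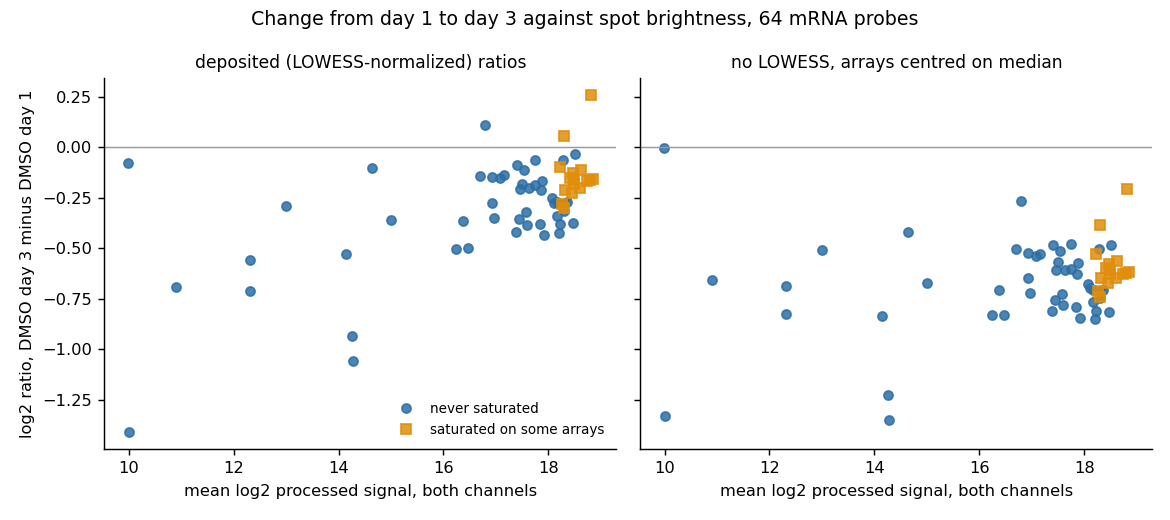
Change in DMSO embryos from day 1 to day 3 (log2 ratio, y axis) against spot brightness (mean log2 processed signal of both channels, x axis) for 64 mRNA probes of ribosomal protein genes; blue circles were never saturated, orange squares were saturated on some arrays. In the deposited ratios (left) the median was -0.36 for the dimmer 24 and -0.27 for the brighter 24 never-saturated probes, and -0.16 for the 16 orange ones. Without LOWESS (right) the medians of these sets were between -0.70 and -0.62, while single probes ran from -1.35 (*rpl7l1*) to -0.0040 (*rps24*).

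Brightness and change moved together in the deposited ratios. Of the never-saturated probes, the dimmer 24 had a median change of -0.36 on day 3, the brighter 24 a median of -0.27, and 16 probes saturated on some arrays a median of -0.16. Without LOWESS the same sets gave -0.68, -0.70 and -0.62. The remaining 17 mRNA probes had reached the embryo channel's ceiling on every vehicle control array of day 1 or of day 3 and have no fold change. Saturation differed between days and between scan batches. In vehicle controls 18 to 29 embryo signals of these genes were at the ceiling per array on day 1. The ranges were 8 to 27, 8 to 17, 4 to 22 and 9 to 21 on days 2 to 5. The highest counts of days 4 and 5, 22 and 21, came from the scan batch of 11 arrays. The other arrays had 4 to 8 and 9 to 12. On day 3 the array of that batch had the lowest count, 8. The parts of day and scan batch were not tested.

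Probes of a single gene showed the same. In 17 of 18 genes with several mRNA probes the dimmest probe had a lower day 3 value than the brightest, with medians of -0.28 and -0.08. Restricted to the 7 genes whose brightest probe was never saturated, this held in 6, with medians of -0.50 and -0.32. Beside *rpl5* above, *rpl12* gave -0.53 ± 0.14 with its dimmest mRNA probe and -0.32 ± 0.07 with its brightest. For *rpl10a*, whose probes are of like brightness, the changes were -0.50 and -0.50. Without LOWESS the dimmest probe was lower than the brightest for *rpl12*, *rps26* and *rps7* among these 7 genes. It was not lower for *rpl4*, *rpl5*, *rpl7l1* and *rpl10a*. The values were -0.69 (dimmest) and -0.82 (brightest) for *rpl5*, and -0.83 and -0.75 for *rpl12*. The part of the dye normalization in these gaps was not tested.

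TCDD left the ribosomal protein mRNAs close to the vehicle control level on every day in the deposited ratios. On days 1, 2, 4 and 5 no member passed limma's adjusted threshold, and on day 3 *rpl6* did, whereas 0.014%, 0.703%, 2.75%, 0.893% and 6.27% of all probes passed on days 1 to 5. At the threshold used in the study's methods, an unadjusted p under 0.01, the counts were 0, 0, 3, 0 and 0, against 0.717%, 3.3%, 6.52%, 3.38% and 9.24% of the array. The array medians of the never-saturated probes were -0.25 ± 0.06 in TCDD and -0.26 ± 0.04 in vehicle control on day 3, and -0.13 ± 0.04 in TCDD and -0.10 ± 0.02 in vehicle control on day 5 (SD, n = 4 each).

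For the deposited ratios the precision allows a bound on these differences. LOWESS can take out a shift that the bright members share, so the bound does not extend beyond these ratios. Between TCDD and vehicle control, 48, 43, 39, 46 and 45 of the 48 never-saturated probes differed by less than 0.2 on the log2 scale on days 1 to 5, and the 95% interval of the difference lay within ±0.5 for 47, 43, 41, 45 and 44 of them. The median differences were 0.01, -0.01, 0.05, 0.03 and 0.00, beside 0.00, 0.01, 0.03, 0.01 and -0.0015 over all probes. Without LOWESS the median of the never-saturated probes was 0.21, 0.12 and 0.13 on days 3 to 5. In that setting the array medians on day 3 were -0.40 ± 0.06 in TCDD and -0.58 ± 0.06 in vehicle control, with ranges of -0.47 to -0.34 in TCDD and -0.63 to -0.49 in vehicle control that did not overlap, but no single member passed the adjusted threshold on any day.

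*rpl6* on day 3 was the single call. It had 0.12, 0.85, 0.53 and 0.46 in TCDD embryos, against -0.12, 0.03, -0.10 and -0.0050 in vehicle controls. Every TCDD array lay above every vehicle control array. The log2 fold change was 0.54 ± 0.13 (adjusted p = 0.0154). Against its own day 1, *rpl6* on day 3 had -0.22 ± 0.13 in TCDD embryos (adjusted p = 0.202) and -0.69 ± 0.13 in vehicle controls. On day 5 it had fallen in both, by -0.49 ± 0.13 in TCDD (adjusted p = 0.00183) and -0.43 ± 0.13 in vehicle control (adjusted p = 0.00609). The call on day 3 was lost without LOWESS (0.49, adjusted p = 0.0800), without experiment 2 (0.44, adjusted p = 0.0936), 3 (0.51, adjusted p = 0.121) or 4 (0.56, adjusted p = 0.107) and in the largest scan batch alone (0.53, adjusted p = 0.258). The test of whether the TCDD effect differed between days did not pass for any member (0.0931% of the array passed), and the smallest among them was that of *rpl6* (adjusted p = 0.868).

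The next members on day 3 did not pass the test. *rpl10a* had 0.52, 0.76, 0.56 and 0.60 in TCDD embryos, against 0.38, 0.41, 0.27 and 0.38 in vehicle controls. The groups did not overlap, and the difference was 0.25 ± 0.08 (adjusted p = 0.0908). Its adjusted p was 0.0298 when the scan batch was blocked and 0.0528 when the experiment was, and the second *rpl10a* probe, of like brightness, gave 0.0805 and 0.0997 in these fits. The block for the experiment called 2 members in all on day 3, *rpl6* and a never-saturated probe of *rpl3*, both higher in TCDD (array: 4.38%). *rps15a* had -0.21, -0.31, -0.20 and -0.12 in TCDD embryos, against -0.11, 0.03, -0.08 and -0.04 in vehicle controls, again without overlap, though the nearest arrays lay side by side. The difference was -0.16 ± 0.06 (adjusted p = 0.174), and without LOWESS it was 0.02.

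**Figure D4:**
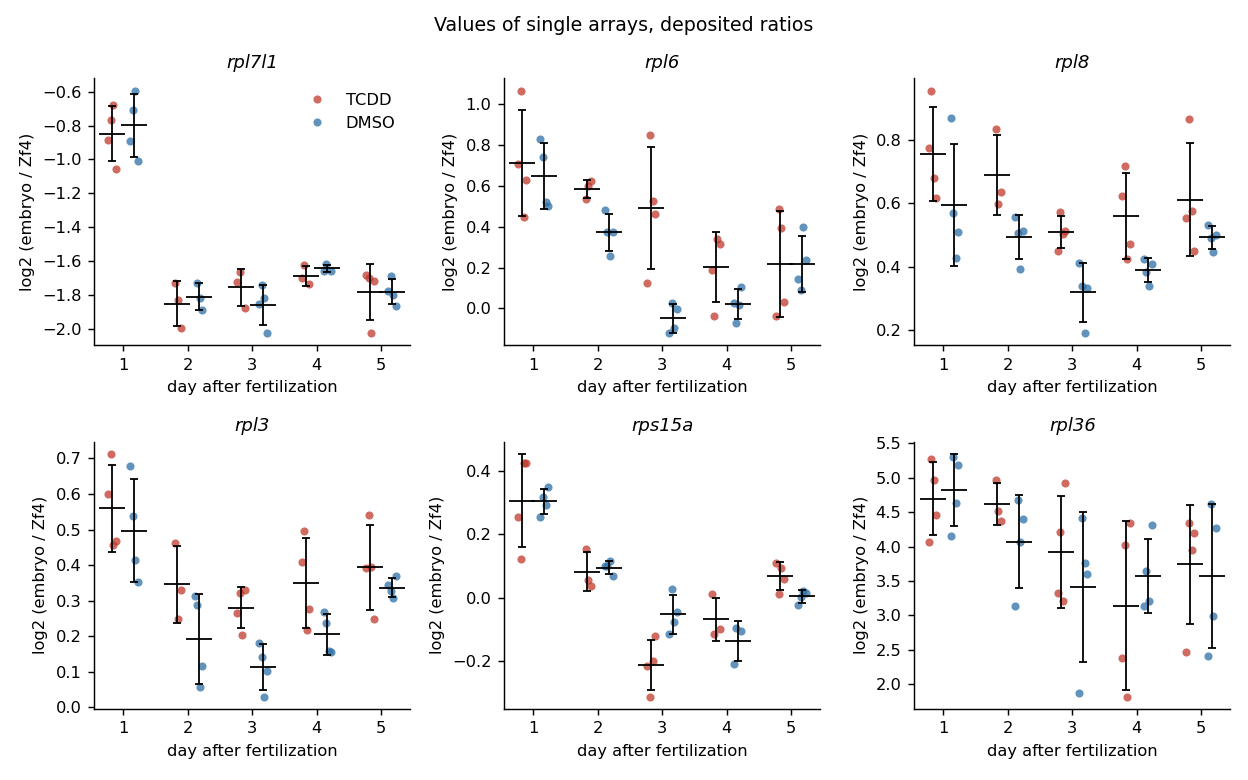
Log2 ratio of embryo to Zf4 on single arrays for 6 ribosomal protein genes (never-saturated probes), by day and treatment; TCDD red, DMSO blue, black bars mean and SD. In these deposited ratios *rpl7l1* drops after day 1 in both treatments, and *rpl6*, *rpl8* and *rpl3* lie higher in TCDD on day 3. In the same ratios *rps15a* lies lower in TCDD on day 3, and *rpl36* varies most between arrays.

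Averaged over the 5 days, 4 members differed between TCDD and vehicle control, 3 of them upward (array: 12.2% differed, 7.03% upward and 5.16% downward). *rpl8*, a protein close to the peptidyl transferase centre, was higher by 0.17 ± 0.04 (adjusted p = 0.00434), and TCDD was above the vehicle control of its own experiment and day in 17 of 19 pairs. On day 3 *rpl8* had 0.45, 0.57, 0.50 and 0.51 in TCDD embryos, against 0.41, 0.34, 0.19 and 0.33 in vehicle controls. *rpl6* was higher by 0.20 ± 0.06 (adjusted p = 0.0200), in 14 of 19 pairs, and 1 probe of *rpl3* by 0.12 ± 0.04 (adjusted p = 0.0261), in 17 of 19 pairs. For *rpl6* these were 2 of 4, 3 of 3, 4 of 4, 4 of 4 and 1 of 4 pairs on days 1 to 5.

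These small mean differences depended on the fit. A block for the experiment gave 8 called probes (array: 15.5%), among which *rpl8*, *rpl6*, *rpl5* and 2 probes of *rpl3* were higher and *rpl36a* and *rpl7* lower in TCDD. A block for the scan batch gave 9 (array: 14.5%). Without experiment 2 none passed in limma, and the adjusted p values were 0.161 for *rpl8*, 0.114 for *rpl6* and 0.278 for *rpl3*. The call of *rpl6* was also lost without experiment 3 (adjusted p = 0.126) and 4 (0.124), and that of *rpl3* without 3 (0.0798) and 4 (0.116). Without LOWESS 5 probes were called, all higher in TCDD (array: 11.3%), 2 of *rpl3* and 1 each of *rpl4*, *rpl8* and *rps9*.

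On days 1, 2 and 4 the members with the smallest p values gave differences that did not pass. *rpl8* had 0.16 ± 0.09 on day 1 (adjusted p = 1.00) and 0.20 ± 0.10 on day 2 (adjusted p = 0.587). On day 4 a probe of *rpl3* saturated on 8 arrays had 0.16 (adjusted p = 0.370), and *rpl8* had 0.17. *rplp0* differed by 0.06 or less on all days with its brightest never-saturated probe, and *rpl13a* by 0.04 or less.

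Further ribosomal protein genes sit on the array under other names. Through current RefSeq symbols, 30 more probes of 23 symbols were recognized. On day 3 of vehicle controls 10 of them fell and none rose in limma (array: 20.8% fell), with a median of -0.11. At an unadjusted p under 0.01, 10 changed. Saturated probes are included in these numbers. Those of *rps2*, *rps27a* and *rps4x* were at the ceiling in at least 1 channel on all 39 arrays. *rpl18* had the largest change, -0.67 ± 0.11 (adjusted p = 3.48e-06), and *rpl5a* had -0.37 ± 0.07 (adjusted p = 1.07e-04). *rps6*, saturated on 1 array, had -0.30 (adjusted p = 1.67e-04), and *rps27.2* had -0.03 (adjusted p = 0.951). TCDD changed none of them on day 3, at either threshold.

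Genes that build ribosomes also fell. By day 3 of vehicle controls 39.2% of the array's probes changed and 20.8% fell, shares that apply to each list below. Of 54 probes for nucleolar and assembly factors, 53 fell in vehicle controls by day 3. Their median was -1.22, beside -0.28 for the never-saturated ribosomal protein probes in the same ratios, and the groups were not tested against each other. On days 2, 4 and 5, 53, 53 and 52 of the 54 fell (array: 15.5%, 24.2% and 25.5% fell). The largest fall was in *npm1a*, which encodes the nucleolar chaperone nucleophosmin, by -1.93 ± 0.14 (adjusted p = 1.17e-12). Translation initiation factors, with names in eif, had 39 of 55 probes lower and 4 higher (median -0.55). Their name pattern also catches the eIF4E-binding proteins *eif4ebp3* and *eif4ebp3l*, inhibitors of initiation, which had the largest falls (-1.95 and -1.84). The probes of *eif4ebp3* disagree, since a second probe rose by 1.40 ± 0.12 on day 4 (adjusted p = 2.22e-11) and by 2.31 ± 0.12 on day 5 (adjusted p = 1.14e-16). Of 16 probes named after elongation factors, 4 fell and 3 rose, among them *eef1a2* by 3.47 ± 0.29, the elongation factor form of muscle and nerve in mammals. TOP genes outside the ribosome had 10 of 25 probes lower and 2 higher (median -0.19), and mitochondrial ribosomal proteins 13 of 35 lower and 1 higher (median -0.10). The TOP list is not separate from the others. It shares *npm1a*, which gave its largest falls, with the assembly factors, and *eef1a1l1* with the elongation factors. Of 10 probes of the p53 response 4 fell and 3 rose, and *mdm2* changed by -1.25 ± 0.16 (adjusted p = 9.24e-08).

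Under TCDD 5 of 35 probes of mitochondrial ribosomal proteins rose on day 3 and 30 did not pass (median 0.14, array: 1.07% rose). Among the 5 were 2 probes of *mrpl3*, with 0.87 ± 0.20 (adjusted p = 0.00974) and 0.41 ± 0.09 (adjusted p = 0.00737), and *mrps34*, with 0.53 ± 0.10 (adjusted p = 0.00111). Of the initiation factors 3 of 55 probes rose on day 3, *eif3ea* by 0.60 ± 0.13 (adjusted p = 0.00420), *eif2s1b* by 0.60 and *eif2b1* by 0.43. Of the 54 biogenesis probes none passed on day 3 in limma (array: 2.75%), and 2 had an unadjusted p under 0.01 (array: 6.52%). On day 5, when 6.27% of the array passed in either direction, 1 of them rose, *utp15*, by 0.52 ± 0.14 (adjusted p = 0.0189). Of the p53 response probes 2 of 10 rose on day 5 (array: 6.27% passed), *gadd45aa* by 1.00 ± 0.18 (adjusted p = 6.44e-04) and *baxa* by 0.38 ± 0.09 (adjusted p = 0.0109).

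Marker mRNAs of several cell types changed over the same days. Beside the counts below, 39.2% of all probes changed in vehicle controls from day 1 to day 3, and 20.8% fell. Markers of proliferating cells fell in vehicle controls by day 3 in 13 of 14 probes (median -1.41), and their summed log2 ratio ran from -4.92 to -2.74 on day 3, compared with 13.4 to 16.0 on day 1. Markers of skeletal muscle rose in 17 of 18 probes (summed log2 ratio 108.3 to 115.9 on day 3 and 70.3 to 81.3 on day 1), those of the lens in 7 of 7, of neurons in 13 of 16, of fibroblasts in 6 of 11 and of liver in 6 of 13. Of 12 epidermis probes 1 rose and 3 fell, and of 6 erythroid probes 1 rose and 2 fell. On day 3 TCDD moved none of the 14 proliferation and 18 muscle probes past the adjusted threshold (array: 2.75%). At an unadjusted p under 0.01, 1 of each passed (array: 6.52%). The summed proliferation ratio of day 3 was -5.04 to -2.61 in TCDD and -4.92 to -2.74 in vehicle control. On day 5, 3 of the 14 proliferation probes were called lower in TCDD (median -0.18) and 0 of the muscle probes were called (array: 6.27%). The summed proliferation ratio was then -20.4 to -12.6 in TCDD and -13.8 to -11.3 in vehicle control, with overlap. The part of these cell types in the change of the ribosomal protein genes was not tested.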

How the data were processed

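Embryo RNA (Cy5 on every array per the labels) and Zf4 reference RNA (Cy3) were hybridized to 39 Agilent 22K zebrafish arrays. The authors extracted the scans with Agilent Feature Extraction 8.1.1 (background subtraction with spatial detrending, dye normalization by LOWESS and linear scaling). The deposited intensity of each spot is given for both channels before and after these steps. Red over green is deposited as a log10 ratio, not normalized between arrays, and the deposited series table held the same log10 ratios for 880425 of 880425 values within 1e-06. The methods speak of labelling with either dye, so the direction rests on the labels.

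Log10 ratios were converted to log2, outlier spots (12 among the members) were set to missing and other spots kept. Group means were fitted to the 39 arrays together in limma 3.58.1 (R 4.3.3), and p values were adjusted by Benjamini and Hochberg over about 21493 probes (threshold 0.05), without a block, as in the study's analysis of variance. The script was tested on simulated data. The 95% intervals use limma's standard errors and t with 29 residual degrees of freedom (Python 3.11.15, scipy 1.17.1). Precision is limited by how many arrays a group has.

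Replicate numbers mark the independent experiments, which pairs arrays. This was checked on deviations from group means: r had a median of 0.234 over 19 same-experiment pairs and of -0.0675 over 57 others. Scan batches from the file headers held 4, 24 and 11 arrays. The batch of 4 held only arrays of experiment 1. The batch of 11 held all arrays of experiment 4 and the TCDD array of day 5 from experiment 3. Blocks for scan batch and for experiment are therefore not independent checks.

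Named genes were, per TCDD contrast, the largest called changes or the smallest p values, the 5 largest called changes of vehicle controls on day 5, a fixed set (among them *rps14*, *rpl11*, *rpl5*, *rplp0*, *rpl13a*, *rpl3*, *rpl7l1*) and genes whose called probes disagree. A gene stands by its brightest probe, or, where that is saturated, by its brightest never-saturated one. *rps10*, *rps29*, *rpl7*, *rps26*, *rps3a*, *rpl4*, *rpl12*, *rpl36* and *rpl10a* were also named after their values had been seen. A few members are counted but their results, a planned correlation included, are not reported here. Members and lists were chosen with earlier results of these data known. The genes *rps6*, *rpsa*, *rplp1*, *rplp2*, *rpl22*, *rpl22l1*, *rps19* and *rps27* are not among the 42 names. Of these, *rps6* is on the array under another name, as is *rps27.2*, and both are among the 30 further probes. Alternatives covered background correction, dye and array normalization, dim, saturated and outlier spots, blocks for experiment and scan batch, array weights, the test, its threshold and samples, and each experiment left out. The largest scan batch alone, the never-saturated probes and the contrasts of days 5 and 4 and of TCDD days 3 and 1 were added after seeing the data.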

Additional observations from a re-analysis of the deposited data

Results flagged for a closer look

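In 5 of 147 groups of 4 arrays, tested over 17 named probes and medians, 1 array stood far from the other 3 of its group (Dixon's test at 95%, which flags about 1 in 20 groups by chance). In vehicle controls on day 1, replicate 4 had 0.27 for *rpl12*, with the others at 0.05 to 0.06. In vehicle controls on day 2, replicate 3 had 0.49 for *rpl10a* (others 0.68 to 0.70) and replicate 4 had -1.27 for *rpl5* (others -1.12 to -1.09). In vehicle controls on day 5, replicate 3 had -0.21 for *rpl4* (others -0.08 to -0.07). In TCDD embryos on day 5, replicate 3 had -2.03 for *rpl7l1* (others -1.72 to -1.69).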

How the results depend on the processing

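Of 505 alternative values for 27 named results, 443 kept direction and side of the threshold, 59 lost the call, 3 gained it and 0 turned direction. For genes with several probes these values include the mean of the probes. That mean has no p value and was compared by direction only. Among the alternatives of the counts and medians, 328 stayed near the main value and 64 did not. For both *rpl7l1* probes in vehicle controls on days 2 and 5, the direction held under all 19 alternatives each. The call held in every alternative that has a p value, which leaves out the mean of the probes. Leaving out saturated spots, also among the 19, does not alter the ratios of these never-saturated probes. The cause of the other shifts was not tested, except that fewer arrays enter the largest scan batch, the fits of 2 groups and the fits without an experiment.

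The counts from here on are of member probes. The array's share in the same fit is not given for them, except where the results above state it. They show only how the calls moved with the processing. Without LOWESS the vehicle control counts against day 1 were 78 on day 3, 71 on day 4 and 64 on day 5, the TCDD count for day 5 against day 1 was 34, and TCDD against vehicle control on day 3 had 0 calls. The median over all 93 members was then 0.18, 0.11 and 0.12 for TCDD against vehicle control on days 3, 4 and 5, and -0.37 for vehicle controls on day 5 against day 1. With the embryo channel alone that last median was -0.22, the counts on day 5 against day 1 were 35 in vehicle controls and 29 in TCDD, and TCDD against vehicle control had 0 calls on day 3 and 0 in the mean of the days. Centring each array gave 24 calls on day 4 and 9 on day 5 in vehicle controls, and 26 on day 3 and 7 on day 5 in TCDD, all against day 1. Normexp and loess gave 12 for TCDD on day 5 against day 1, and quantile normalization 2 for TCDD against vehicle control on day 3.

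The replicate block, which follows the pairing by experiment, gave 2 calls for TCDD against vehicle control on day 3, 8 in the mean of the days, 28 for vehicle controls on day 5 against day 1 and 1 for day 5 against day 4, and it moved no other count by over 1.5 times. The scan batch as a block gave 2 on day 3, 1 on day 5 and 9 in the mean for TCDD against vehicle control, and 1 for vehicle controls on day 5 against day 4. Array weights gave 2 for TCDD on day 3 and 2 for day 5 against day 4, the filter on dim probes 1 for the last and the analysis of variance without moderation 2.

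The largest scan batch alone gave 0 for TCDD against vehicle control on day 3, 5, 15, 24 and 8 for vehicle controls on days 2 to 5 against day 1, and 26 and 7 for TCDD on days 3 and 5 against day 1. Fits of only the 2 groups compared gave 0 for TCDD on day 3, 4, 21, 25 and 7 for vehicle controls on days 2 to 5, and 6 for TCDD on day 5 against day 1. At an unadjusted p under 0.01 the counts were 3 for TCDD on day 3 and 2 for vehicle controls on day 5 against day 4. The methods' analysis of variance at that threshold gave 5 for TCDD on day 3, 1 on day 4, and 4 for vehicle controls on day 5 against day 4.

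Leaving out 1 experiment at a time gave 0 to 1 calls for TCDD on day 3, 0 to 3 in the mean of the days, 9 to 14, 31 to 36, 28 to 33 and 7 to 14 for vehicle controls on days 2 to 5 against day 1, and 23 to 30 and 9 to 20 for TCDD on days 3 and 5 against day 1. Saturation limits 33 member probes, and 5 of the 12 tag probes were not above background in the embryo channel on every array.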
